A study of Homo sapiens with 4 samples.

Results

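The genes described here were 10 named as targets or feedback genes of canonical WNT signalling: AXIN2, NKD1, DKK1, RNF43, ZNRF3, LGR4, LGR5, LGR6, LEF1 and TCF7. Below they are called WNT response genes, as a name for the list. Whether each of these genes responds to WNT in these cells was not tested. They were listed by name for their known place in the pathway, with no threshold on their values, but with earlier results of these data known. The count tables held 26475 genes, these 10 included. A gene was analysed further when at least 1 library held 10 or more counts, which 9 of the 10 genes met (LGR5 did not), as did 15204 genes in all.

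RNA came from mammospheres, the floating spheres grown from MDA-MB-468, an established line of basal-like triple-negative breast carcinoma. The libraries numbered 4, with 1 for each condition. CTL was labelled wild type and untreated, CTL+dox wild type with doxycycline, gRNA2 wild type and untreated, and gRNA2+dox a knockout of TCOF1 brought on by doxycycline. All cells, the controls included, carried Cas9 and a doxycycline-inducible guide construct, which in the controls held no TCOF1 guide and was described in places as a vector control and in others as a control gRNA. By the study's methods the cells were delivered the vectors by lentivirus and sorted as a mixed population on the fluorescent proteins of both, so that gRNA2 cells were not a clone, and each library came from several pooled plates with no biological replicate. Doxycycline was therefore compared within gRNA2 cells and within CTL cells, and the cell populations were compared without and with doxycycline. These 4 comparisons share libraries and are not independent of each other.

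The pathway works as follows. WNT ligands bind a Frizzled receptor with LRP5 or LRP6, which stops the destruction complex from degrading β-catenin, and β-catenin then enters the nucleus and switches on genes together with transcription factors of the TCF family. Several of the genes switched on limit the signal or tune its reception, so that their RNA is widely read as a sign of pathway activity. In the mammary gland, WNT signals act on basal cells and on stem cells.

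Values are CPM, the reads of a gene for every 1000000 reads on genes, scaled by the trimmed mean of M values. Each library held 19960644 to 26322847 reads on genes. Between conditions the log2 ratio of the scaled counts is given, with its exact 95% interval from the binomial split of the reads. Intervals cover counting error only, since with 1 library per condition the spread between cultures was not measured, and no difference was tested against it. All 10 genes listed as marks of a basal-like breast line held at least 10 reads in every library, with a summed level of 23386 to 25520 CPM, whereas CDH5 had no reads and PTPRC and LUM at most 2. The hormone receptor genes ESR1 and PGR had 4 to 13 and 0 to 7 reads. Lists of white blood cell, fibroblast and endothelial genes summed to 155 to 182, 17.0 to 21.5 and 13.4 to 16.3 CPM. The white blood cell sum came mainly from CD68 (1905 to 3036 reads), CSF1R (1011 to 1433) and CD14 (233 to 280), the fibroblast sum from COL1A1 (358 to 543) and the endothelial sum from KDR (257 to 337). Their part in the results was not tested.

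The targeted gene, TCOF1 (chr5:150357697-150400293, GRCh38), encodes the nucleolar protein treacle. In the order CTL, CTL+dox, gRNA2, gRNA2+dox, it was covered by 1019, 754, 1318 and 437 reads, or 49.9, 33.5, 50.6 and 20.0 CPM. Its RNA was lowest in gRNA2+dox, with a log2 ratio to gRNA2 of -1.34 (-1.50 to -1.18), but was also lower in CTL+dox than in CTL, at -0.58 (-0.71 to -0.44). The difference between these ratios was -0.76 (-0.97 to -0.56). The guide is shown because it defines the knockout. It lies in hg19 on the minus strand at chr5:149754959-149754981, in the coding part of exon 11 of 27 of the canonical transcript, and its capitals mark the PAM, the short motif that Cas9 needs beside its target.
TCOF1_gRNA2: gggccggcgcctttccccaaGGG

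Across the 4 conditions the WNT response genes differed little in level, with LGR6 as the widest apart. The ratio of the highest to the lowest library was 1.06 for ZNRF3, 1.13 for LGR4, 1.13 for AXIN2, 1.17 for TCF7, 1.21 for DKK1, 1.25 for RNF43 and 1.38 for NKD1. It reached 1.71 for LGR6 and 1.70 for LEF1, which had 12 reads or fewer. Among 7294 genes with a mean level of 8 to 100 CPM the median of this ratio was 1.19, with 80% of them between 1.08 and 1.40, and the 7 WNT response genes in that range had a median of 1.21. LGR6 was the gene outside the 1.08 to 1.40 range on the high side, and ZNRF3 on the low side.

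Levels of the WNT response genes were set beside each other per kilobase of merged exons, as means of the 4 libraries. LGR4 was highest at 10.7 CPM per kb, followed by DKK1 at 7.28, TCF7 at 4.90, ZNRF3 at 4.76, NKD1 at 3.49, LGR6 at 2.52 and RNF43 at 2.31 CPM per kb. AXIN2 was far lower at 0.272 CPM per kb, and LEF1 at 0.0835. The libraries of TCF7 and ZNRF3 overlapped, as did those of NKD1 and LGR6 and those of LGR6 and RNF43, so that the order of these neighbours was not set. The place of TCF7 also turned on the length used, since its merged exons span 10093 bases and its canonical transcript 3288. By the canonical transcript TCF7 had 15.0 CPM per kb and LGR4 13.0.

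Intracellular and secreted inhibitors come first. AXIN2 (chr17:65528563-65561648) encodes a scaffold of the destruction complex and is the most widely used readout of canonical WNT activity. It had 31, 32, 35 and 30 reads in CTL, CTL+dox, gRNA2 and gRNA2+dox, or 1.52, 1.42, 1.34 and 1.37 CPM. No difference between the libraries was detectable at this depth. Its log2 ratio was 0.03 (-0.72 to 0.78) for gRNA2+dox against gRNA2 and -0.05 (-0.82 to 0.72) against CTL+dox, with intervals that reach well to both sides of 0.

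NKD1 (chr16:50548396-50649249) encodes Naked cuticle 1, which binds Dishevelled and restrains the signal. It had 1201, 1143, 1824 and 1370 reads, or 58.8, 50.7, 70.0 and 62.7 CPM. Both gRNA2 libraries lay above both CTL libraries, and doxycycline went with a lower level in each population. Untreated gRNA2 cells had a log2 ratio of 0.25 (0.15 to 0.36) to untreated CTL cells, and treated cells of 0.31 (0.19 to 0.42). With doxycycline it was -0.16 (-0.26 to -0.06) in gRNA2 cells and -0.21 (-0.33 to -0.09) in CTL cells. The ratios with doxycycline differed by 0.05 (-0.10 to 0.21), an interval that holds 0. Its paralog NKD2 had at most 1 read in any library.

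DKK1 (chr10:52314281-52317657) encodes Dickkopf 1, a secreted protein that keeps LRP5 and LRP6 from the ligand. It had 297, 390, 399 and 383 reads, or 14.5, 17.3, 15.3 and 17.5 CPM in the same order. The doxycycline libraries were the higher in both populations, with a log2 ratio of 0.25 (0.03 to 0.47) in CTL cells and 0.19 (-0.01 to 0.40) in gRNA2 cells. Between gRNA2+dox and CTL+dox the ratio was 0.02 (-0.19 to 0.23). DKK1 was thus higher in gRNA2+dox than in all 3 other libraries, but its margin over CTL+dox was within counting error.

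The 250 bases before the start of DKK1 are shown because they hold the short words that TCF factors are known to bind. In RefSeq promoter windows of GRCh38.p14, each with 250 bases before and 50 after a start, the words CTTTGAT and CTTTGAA were searched, together with CTTTGTT and CTTTGTA, on both strands. At least 1 of the 4 words was in 4829 of 35116 windows (13.8%). Windows were at hand for 6 of the 10 genes, and 2 of their 10 windows held a word: that of DKK1 and the downstream start of TCF7. In DKK1, at chr10:52314031-52314280 on the plus strand, the capitals mark CTTTGAA at positions -95 to -89 and CTTTGTT at -76 to -70 from the start. A word is a match of letters and not evidence of binding.
DKK1: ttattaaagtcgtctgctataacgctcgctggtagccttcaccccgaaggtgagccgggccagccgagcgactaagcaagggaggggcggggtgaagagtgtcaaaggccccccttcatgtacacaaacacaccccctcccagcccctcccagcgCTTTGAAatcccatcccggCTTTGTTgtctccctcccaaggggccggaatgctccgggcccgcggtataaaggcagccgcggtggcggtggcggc

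RNF43 and ZNRF3 are membrane E3 ubiquitin ligases that remove Frizzled receptors from the cell surface, and WNT signalling raises both as feedback. RNF43 (chr17:58352500-58417534) had 303, 284, 409 and 337 reads, or 14.8, 12.6, 15.7 and 15.4 CPM. It was lowest in CTL+dox, whose interval of 11.2 to 14.2 CPM overlapped those of CTL and gRNA2+dox. The log2 ratio was -0.03 (-0.24 to 0.19) for gRNA2+dox against gRNA2 and 0.29 (0.06 to 0.52) against CTL+dox. ZNRF3 (chr22:28883572-29057488) had 708, 735, 851 and 722 reads, or 34.7, 32.6, 32.7 and 33.1 CPM. It was the steadiest of the genes, and its log2 ratios in the 4 comparisons lay between -0.09 and 0.02, each with an interval that holds 0. Reading each strand on its own added 11 to 18 reads per library to RNF43, which the unstranded counts left out as ambiguous with an overlapping gene. It likewise added 8 to 20 reads to LGR4 and 0 to 4 to LEF1, described next. The libraries were not stranded, so these reads cannot be assigned to either gene of an overlap.

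The LGR proteins are receptors of R-spondins, secreted proteins that draw RNF43 and ZNRF3 away from Frizzled and so strengthen the WNT signal. LGR4 (chr11:27365961-27472790) had 1312, 1633, 1747 and 1507 reads, or 64.2, 72.5, 67.1 and 69.0 CPM. It was highest in CTL+dox, with a log2 ratio to CTL of 0.17 (0.07 to 0.28), whereas with doxycycline in gRNA2 cells the ratio was 0.04 (-0.06 to 0.14). These ratios differed by -0.13 (-0.28 to 0.01). LGR5 (chr12:71439129-71586310), the stem cell marker of the intestine, had 0, 1, 2 and 0 reads, which allows levels of up to 0.181, 0.247, 0.277 and 0.169 CPM by the exact 95% interval. No ratio is given for LGR5.

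LGR6 (chr1:202193799-202319761) differed most between the libraries. In the order used above its reads numbered 287, 326, 268 and 185, or 14.1, 14.5, 10.3 and 8.47 CPM. Both gRNA2 libraries were lower than both CTL libraries, and gRNA2+dox was the lowest of all. The log2 ratio of gRNA2+dox to CTL+dox was -0.77 (-1.04 to -0.51), a level of 0.586 times that in CTL+dox, and 4.94% of the genes analysed had a lower ratio. A lower level was present without doxycycline too, since gRNA2 against CTL gave -0.45 (-0.70 to -0.20). With doxycycline the ratio was -0.28 (-0.56 to -0.0049) in gRNA2 cells and 0.04 (-0.19 to 0.28) in CTL cells, and their difference of -0.32 (-0.68 to 0.03) had an interval that holds 0. In bulk RNA, fewer LGR6-bearing cells and less LGR6 RNA per cell cannot be told apart, and with 1 sorted population per construct neither can the guide and the population.

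The share of reads within pairs of related genes, chosen after the values were seen, gave a view that does not depend on scaling between libraries. LGR6 made up 17.9% of the reads of LGR4 and LGR6 in CTL (16.1 to 19.9%, exact 95% binomial interval) and 16.6% in CTL+dox (15.0 to 18.4%). It made up 13.3% in gRNA2 (11.8 to 14.9%) and 10.9% in gRNA2+dox (9.49 to 12.5%). The intervals of both gRNA2 libraries thus lay below those of both CTL libraries. RNF43 made up 30.0, 27.9, 32.5 and 31.8% of the reads of RNF43 and ZNRF3, with intervals that all overlapped, by the least between CTL+dox (25.1 to 30.7%) and gRNA2 (29.9 to 35.1%). AXIN2 made up 1.67 to 2.38% of the reads of AXIN2 and AXIN1, its constitutive paralog.

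LEF1 and TCF7 are DNA-binding partners of β-catenin and are themselves switched on by WNT signals in many tissues. LEF1 (chr4:108047548-108168932) had 12, 9, 9 and 10 reads, or 0.588, 0.400, 0.346 and 0.458 CPM. At this depth no difference was detectable, and the log2 ratio of gRNA2+dox to gRNA2 was 0.38 with an interval from -1.05 to 1.88. TCF7 (chr5:134108218-134148210) had 1006, 1134, 1377 and 988 reads, or 49.3, 50.3, 52.9 and 45.2 CPM. It was lowest in gRNA2+dox and highest in gRNA2.

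The log2 ratio of TCF7 with doxycycline was -0.22 (-0.34 to -0.11) in gRNA2 cells and 0.03 (-0.09 to 0.16) in CTL cells. Their difference was -0.26 (-0.43 to -0.09), and TCF7 was the single gene of the 9 for which the interval of this difference left out 0. Over all genes analysed, that was so for 4118 of 15204 (27.1%). Between gRNA2+dox and CTL+dox the TCF7 ratio was -0.15 (-0.28 to -0.03). The window at its downstream start, chr5:134123368-134123617 on the plus strand of GRCh38, is shown as the other window with a TCF word. Its capitals mark AACAAAG at positions -50 to -44, which reads CTTTGTT on the other strand.
TCF7: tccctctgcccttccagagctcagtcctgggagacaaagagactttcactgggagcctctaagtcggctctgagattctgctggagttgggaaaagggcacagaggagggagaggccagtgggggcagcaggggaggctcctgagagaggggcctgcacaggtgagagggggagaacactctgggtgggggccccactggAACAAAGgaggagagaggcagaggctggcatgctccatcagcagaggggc

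**Figure D1:**
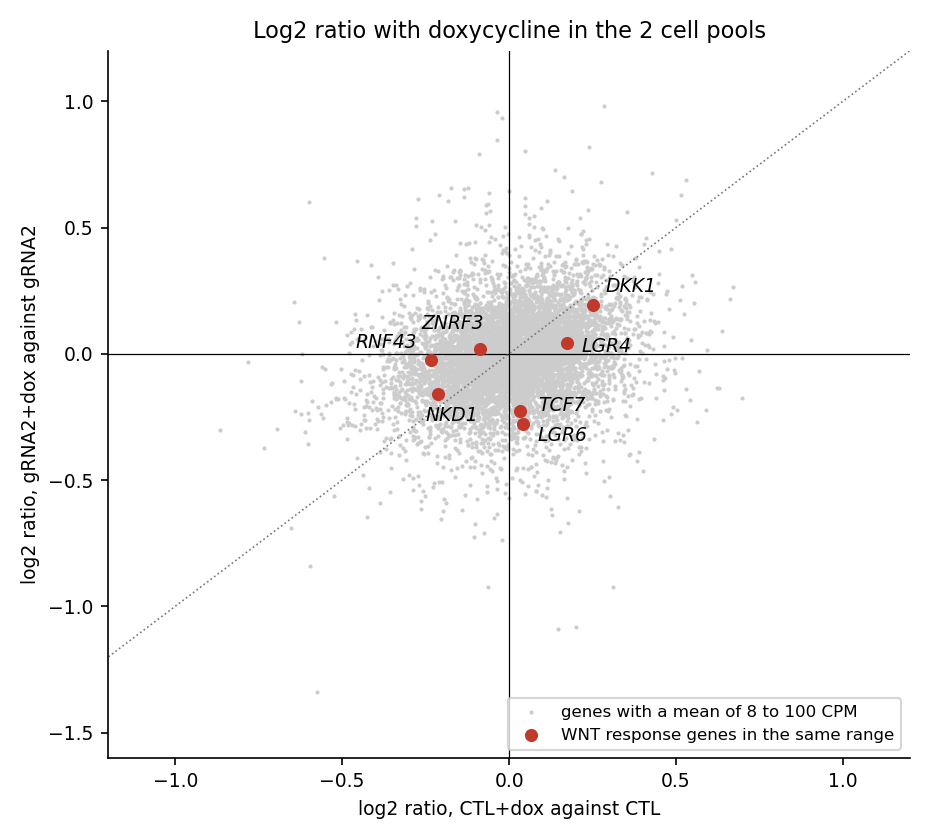
Log2 ratio with doxycycline in CTL cells (horizontal axis) against that in gRNA2 cells (vertical axis) for 7 WNT response genes (red, named) and all 7294 genes with a mean of 8 to 100 CPM (grey), of which 7 fall outside the axes, with a dotted line where both ratios are equal. TCF7 lies below the dotted line, at 0.03 and -0.22, and NKD1 lies below 0 on both axes, at -0.21 and -0.16.

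No WNT response gene passed the fold cutoffs in any of the 4 comparisons. A gene passed when its log2 ratio was beyond 1 in size and the bound of the ratio nearest to 0, at the 1% or 99% quantile, was still beyond 0.5. For gRNA2+dox against gRNA2 the cutoffs were passed by 0.599% of all genes analysed. The share was 0.257% for CTL+dox against CTL and 0.566% for gRNA2 against CTL. For gRNA2+dox against CTL+dox it was 1.51%, of which 1.03% were lower and 0.487% higher. With 9 genes and shares of this size, a count of 0 says little about the WNT response genes.

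Counts of intervals that leave out 0 are less strict. For gRNA2+dox against gRNA2, the interval lay above 0 for none of the 9 genes and below 0 for 3 (TCF7, NKD1 and LGR6), against 13.6% and 17.3% of all genes analysed. For CTL+dox against CTL it lay above 0 for LGR4 and DKK1 and below 0 for NKD1, against 16.6% and 14.3%. In gRNA2 against CTL, NKD1 was above and LGR6 below 0, against 19.7% and 11.8%. In gRNA2+dox against CTL+dox, NKD1 and RNF43 were above and TCF7 and LGR6 below 0, against 20.8% and 19.4%. The medians of the 9 log2 ratios were 0.02, -0.09, 0.06 and 0.02 in these comparisons, beside -0.02, 0.01, 0.03 and 0.0009 over all genes.

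Taking gRNA2+dox against every other library, 1 of the 9 genes (DKK1) was above all 3 and 2 (TCF7 and LGR6) were below all 3. Among all genes analysed, 23.8% were above and 26.3% below all 3. AXIN2 and ZNRF3 were in neither count, and RNF43 was above all 3 when libraries were thinned or the stranded columns were averaged.

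The rest of the pathway was described with lists of 108 other genes, of which 84 held enough reads. None of the 4 R-spondins, the ligands of the LGR receptors, was among the 84. RSPO1, the highest of them, had 8 and 4 reads in the CTL libraries and none in the gRNA2 libraries. The gene with the highest mean CPM in each list is given without a ranking per length. It was WNT7B for the ligands at 145 CPM, LRP5 for the receptors at 66.4 CPM and WLS, the carrier that brings WNT proteins to the surface, for secretion at 76.3 CPM. In both CTL libraries the receptor FZD7 was above LRP5. In the other lists it was the secreted inhibitor SFRP1 at 148 CPM, the destruction complex kinase GSK3A at 279 CPM, the β-catenin cofactor BCL9L at 648 CPM and CD44, a reported target, at 1755 CPM. These are means of the 4 libraries.

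For gRNA2+dox against gRNA2, the interval of the log2 ratio lay above 0 for 12 of the 84 genes and below 0 for 19, against 13.6% and 17.3% of all genes analysed. In CTL+dox against CTL these counts were 10 and 17, against 16.6% and 14.3%, and in gRNA2 against CTL they were 21 and 20, against 19.7% and 11.8%. For gRNA2+dox against CTL+dox they were 26 and 22, against 20.8% and 19.4%. An interval that left out 0 was thus found for 36.9, 32.1, 48.8 and 57.1% of the 84 genes in these comparisons. Over all genes analysed these shares were 31.0, 31.0, 31.5 and 40.3%. Such intervals are narrower for genes with more reads, and the 84 genes were not matched to all genes in level. By list, the median log2 ratio of gRNA2+dox to gRNA2 was -0.21 for 13 WNT ligands, -0.12 for 14 receptors, 0.04 for 8 extracellular inhibitors and 0.01 for 16 genes of Dishevelled and the destruction complex. It was -0.0048 for 14 nuclear partners, -0.09 for 16 other reported targets and 0.30 for 3 genes of secretion and processing.

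The fold cutoffs were passed by 6 of the 84 genes (7.14%) in gRNA2+dox against CTL+dox, all lower, against 1.51% of all genes and 1.03% lower. They were SOSTDC1, WNT5B, FZD8, MMP7, DKK2 and SP5. All 6 were also below both CTL libraries in untreated gRNA2 cells. For 5 of them (all but SP5) the interval of gRNA2 against CTL lay below 0, so that a lower level was present without doxycycline too. SOSTDC1, a secreted inhibitor of WNT and BMP signals, had 175, 230, 118 and 45 reads in that order of libraries. Its log2 ratio was -2.30 (-2.80 to -1.84) against CTL+dox and -1.13 (-1.67 to -0.63) against gRNA2, and it was the only one of the 84 past the cutoffs within gRNA2 cells. MMP7, a matrix protease and reported target, had 243, 273, 155 and 130 reads, with a ratio of -1.02 (-1.34 to -0.72) against CTL+dox but 0.0004 (-0.35 to 0.35) against gRNA2.

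WNT5B, a ligand best known for signals outside the β-catenin branch, had 190, 207, 132 and 84 reads. Its log2 ratio was -1.25 (-1.64 to -0.88) against CTL+dox and -0.40 (-0.81 to 0.0076) against gRNA2. Without doxycycline, gRNA2 against CTL gave -0.87 (-1.21 to -0.55). The Frizzled receptor FZD8, which the study followed up, had 64, 49, 37 and 16 reads. The study reported lower FZD8 mRNA by RT-qPCR in mammospheres with TCOF1 knockout, and lower protein by immunoblot in spheroids. Overexpressed FZD8 did not restore mammosphere formation there. In these data the FZD8 ratio of gRNA2+dox was -1.54 (-2.48 to -0.73) against CTL+dox and -0.93 (-1.90 to -0.07) against gRNA2. For FZD8, gRNA2 against CTL gave -1.13 (-1.77 to -0.54). With doxycycline in CTL cells the FZD8 ratio was -0.52 (-1.09 to 0.03), an interval that holds 0. That ratio was 0.25 for SOSTDC1, 0.03 for MMP7 and -0.02 for WNT5B. DKK2, a relative of DKK1, had 13, 15, 3 and 2 reads and passed the cutoffs in gRNA2 against CTL too. SP5, a transcription factor and reported direct target, had 6, 14, 6 and 0 reads, and the upper end of the interval of its ratio to CTL+dox was -1.69. DKK2 and SP5 passed the filter on low counts only through CTL libraries, where they were high, so their ratios are given as a description. They could be called only as lower in gRNA2+dox, and the lists were chosen with earlier results of these data known. The count of 6 and its share are therefore a description too.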

How the data were processed

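RNA-seq of mammospheres gave 1 library for each of 4 conditions, assigned from the sample titles and treatment labels. The authors deposited a table of raw read counts per gene for each library, with columns for unstranded and for both stranded readings. The submitters' processing notes name STAR and hg38; versions and the annotation used for counting are not given in the sources used here. The unstranded counts were used, since 49.0 to 49.1% of stranded reads fell on the first strand. Rows that name no gene (unmapped, multimapping, no feature, ambiguous) held 19.0 to 20.3% of each table and were left out. Genes with 10 counts in at least 1 library were kept. Libraries were scaled by TMM in edgeR 4.0.16 (R 4.3.3), with factors of 0.985 to 1.02, and log2 ratios used a prior count of 0.5. Intervals of ratios were exact (Clopper-Pearson, scipy 1.17.1) at 95%, and levels had exact Poisson intervals. Intervals of a difference between log2 ratios were not exact. They were a normal approximation at 95%, from the mean and standard deviation of a Poisson posterior. Without replicates no dispersion could be estimated, so no p-value is given. For the same reason the intervals cover counting error only. Reads carry no molecular identifiers, so copies of the same molecule could not be told apart, and the intervals treat each read as independent. Code was tested on simulated data. Alternatives were other scalings (DESeq2 1.42.0 size factors, total counts), filters, prior counts, cutoffs, stranded columns, thinned libraries, an added coefficient of variation and, chosen after seeing the data, another gene length. Of the 10 genes, all are named, with TCOF1, FZD8 and, from each pathway list, the gene of highest mean level and those past the cutoffs. NKD2, AXIN1, FZD7, TCF7L1, TCF7L2 and the marker genes were named outside this rule, the first 5 after their values were seen. The members and lists were chosen with earlier results of these data known. Gene positions are from RefSeq on GRCh38, and promoter sequences from RefSeq on GRCh38.p14. The guide sequence is from the study's supplementary files and was matched once on chromosome 5 of hg19.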

Additional observations from a re-analysis of the deposited data

Results flagged for a closer look

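TCF7, a transcription factor of the TCF family, drew attention because its ratio with doxycycline differed between the gRNA2 and CTL populations. In CTL cells that ratio was 0.03 (-0.09 to 0.16), an interval that holds 0. The difference of the log2 ratios, gRNA2 cells minus CTL cells, was -0.26 (-0.43 to -0.09), from 52.9 to 45.2 CPM in gRNA2 cells and from 49.3 to 50.3 CPM in CTL cells. The interval covers counting error only and the difference was not tested over replicates. An interval that left out 0 was found for 27.1% of all genes analysed, and TCF7 was 1 of 9 WNT response genes examined.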

How the results depend on the processing

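Scaling by total counts or by DESeq2 size factors shifted the log2 ratios of all genes by -0.05 to 0.01. No gene with an interval that left out 0 changed direction under any alternative. The number of genes highest in gRNA2+dox, 1 as reported, was 0 with total counts only, 2 in thinned libraries and 2 with the mean of the stranded columns, RNF43 being the gene added. With both cutoffs loosened, the ratio to 0.58 and its bound to 0, 1 gene (LGR6) passed in gRNA2+dox against CTL+dox in place of 0. When a biological coefficient of variation (set to 0.1) was assumed beside the counting error, the number of intervals that left out 0 went from 3, 3, 2 and 4 to 0, 0, 0 and 1 for gRNA2+dox against gRNA2, CTL+dox against CTL, gRNA2 against CTL and gRNA2+dox against CTL+dox, and the 1 was LGR6. Statements on NKD1, TCF7, LGR4, DKK1 and RNF43, and on LGR6 in the other comparisons (gRNA2 against CTL included), thus rest on counting error alone. The other 106 alternative values of these counts and medians moved by less than the limits set for them, as did 307 values of single genes. Some changes fell within those limits. For gRNA2+dox against gRNA2, 2 intervals in place of 3 left out 0 in thinned libraries and with the mean of the stranded columns. For CTL+dox against CTL, 4 in place of 3 did so with total counts or DESeq2 size factors. For gRNA2 against CTL, 3 in place of 2 did so in thinned libraries. The LEF1 ratio of gRNA2+dox to CTL+dox went from 0.19 to -0.40 with the mean of the stranded columns. The per-kilobase level by canonical transcript moved for 7 genes beyond the spread of the libraries. The medians of the log2 ratios ranged from -0.03 to 0.07 for gRNA2+dox against gRNA2, from -0.12 to 0.03 for CTL+dox against CTL, from 0.01 to 0.07 for gRNA2 against CTL and from -0.01 to 0.02 for gRNA2+dox against CTL+dox. No paired analysis was possible because there was 1 library per condition, and for the same reason no replicate could be left out. Depth limits AXIN2 and LEF1 most, and LGR5 could not be compared.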

Other observations

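Among the nuclear partners, TCF7L1 and TCF7L2, relatives of TCF7 and LEF1 that act on the same sites, were higher in the gRNA2 population with or without doxycycline. In the order CTL, CTL+dox, gRNA2, gRNA2+dox, TCF7L1 was at 24.3, 19.8, 31.1 and 25.0 CPM, with log2 ratios of 0.35 (0.19 to 0.52) for gRNA2 against CTL and 0.34 (0.16 to 0.52) for gRNA2+dox against CTL+dox. TCF7L2 was at 20.6, 19.4, 27.8 and 25.7 CPM, with ratios of 0.43 (0.26 to 0.61) and 0.40 (0.22 to 0.59). With doxycycline TCF7L1 was lower in both populations, at -0.31 (-0.47 to -0.15) in gRNA2 cells and -0.30 (-0.49 to -0.11) in CTL cells. Of all genes analysed, 19.7% had an interval above 0 in gRNA2 against CTL and 20.8% in gRNA2+dox against CTL+dox. Both TCF7L1 and TCF7L2 were chosen after their values were seen, and these intervals cover counting error only.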
